A study of Mus musculus with 2 samples.

Results

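The miR-17/92 and miR-106b/25 clusters are a pair of short runs of microRNA hairpins, each cut from 1 long precursor RNA, that carry related microRNAs and are known for their high expression in dividing cells. The members were taken by name from the annotation and not by their measured levels: Mir17, Mir18, Mir19a, Mir20a, Mir19b-1 and Mir92-1 of miR-17/92, and Mir106b, Mir93 and Mir25 of miR-106b/25. They are 9 of the 2202 microRNA genes in the count tables. Small RNAs were sequenced from the adrenal gland, which joins a steroid-making cortex to a catecholamine-making medulla, in 10-day-old females of the mouse strain B6CASTF1/J. These mice are untreated first-generation hybrids of C57BL/6J and CAST/EiJ parents as far as the labels say, with no engineered allele named. The series has 1 group of 2 libraries, replicates 1 and 2, from animals numbered 3 and 4, and no condition was compared with another. Both samples carry a single donor entry, so only the animal numbers and the biological replicate labels mark them as separate animals. Every p-value below measures a difference between these libraries only. Whether the glands of several animals were pooled is not given in the sources used here.

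A microRNA hairpin is cut into a short duplex, 1 arm of which is usually kept as the guide that leads Argonaute to messenger RNAs. The guide pairs with its targets mainly through its seed, bases 2 to 8, so microRNAs with the same seed share many targets. Transcription of miR-17/92 is activated by Myc and by E2F factors, miR-106b/25 lies in the E2F-responsive gene Mcm7, and known targets of these microRNAs include Cdkn1a and Bcl2l11, brakes on the cell cycle and on survival.

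The 9 guide arms fall into 4 seed families, and their sequences are shown because the families order all results that follow. They are RefSeq mature microRNAs on GRCm38.p6, written 5′ to 3′ with the seed in capitals. The guide arm was taken as the arm known as such, since the counts are per hairpin and do not separate the arms. The miR-17 family has a member at Mir17, Mir20a, Mir106b and Mir93.
miR-17-5p: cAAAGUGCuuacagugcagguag
miR-20a-5p: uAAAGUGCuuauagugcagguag
miR-106b-5p: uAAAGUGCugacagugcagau
miR-93-5p: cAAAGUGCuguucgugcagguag
The miR-18 family has 1 member, from Mir18.
miR-18a-5p: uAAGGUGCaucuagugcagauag
The miR-19 family comes from Mir19a and Mir19b-1.
miR-19a-3p: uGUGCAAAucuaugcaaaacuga
miR-19b-3p: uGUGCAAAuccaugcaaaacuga
The miR-92 family comes from Mir92-1 and Mir25, and so closes both clusters.
miR-92a-3p: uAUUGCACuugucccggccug
miR-25-3p: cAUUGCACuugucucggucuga

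Outside the seed, the arms of a family differed by few bases, counted here from 1 at the 5′ end with the base of the gene named first written first. Mir17 and Mir20a differed by C1U and C12U. Mir17 and Mir93 differed by U10G, A11U, C12U and A13C. Mir19a and Mir19b-1 differed by U11C alone, and Mir92-1 and Mir25 by U1C, C14U and C18U.

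Another cluster of the same ancestry, on chromosome X and here called Mir106a-Mir363 after its first and last gene, was used for comparison, and the guide arms that gave it a testable level are shown with the same seeds in capitals.
miR-106a-5p: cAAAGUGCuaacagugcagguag
miR-20b-5p: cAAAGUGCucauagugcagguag
miR-363-3p: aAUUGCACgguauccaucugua
Its remaining testable gene, Mir92-2, encodes a guide arm identical to that of Mir92-1, and its Mir19b-2 encodes one identical to that of Mir19b-1. Reads from these identical arms align to more than 1 place, and reads with several alignments were not counted, so the levels of Mir92-1 and Mir19b-1 are lower limits. Reads from these guide arms can be told apart only by the bases beside the arm, while the opposite arms of the copies differ in sequence. Below, each arm is printed with 3 hairpin bases before it and 4 after it, and capitals mark the bases that differ between the copies.
Mir92-1, chr14:115044473-115044500, plus strand: UGguauugcacuugucccggccugUUga
Mir92-2, chrX:52741850-52741877, minus strand: AAguauugcacuugucccggccugAGga
Mir19b-1, chr14:115044355-115044384, plus strand: UgcugugcaaauccaugcaaaacugaCugu
Mir19b-2, chrX:52741987-52742016, minus strand: GgcugugcaaauccaugcaaaacugaUugu
The longest run that Mir92-1 shared with another annotated hairpin was 22 bases, and that of Mir19b-1 was 25 bases. The other 7 members shared at most 17 bases with any other annotated hairpin, which is shorter than their guide arms.

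The hairpins lie in the genes Mir17hg and Mcm7 (mm10, GENCODE M21). On chromosome 14, plus strand, Mir17 spans 115043671 to 115043754, Mir18 spans 115043851 to 115043946, and Mir19a spans 115044000 to 115044081. Further along, Mir20a spans 115044157 to 115044263, Mir19b-1 spans 115044305 to 115044391, and Mir92-1 spans 115044427 to 115044506. All 6 are inside an exon of the 1 annotated transcript of Mir17hg, a noncoding host gene. On chromosome 5, minus strand, Mir106b spans 138165737 to 138165818, Mir93 spans 138165523 to 138165610 and Mir25 spans 138165321 to 138165404. These 3 lie in intron 13 of the longest coding transcript of Mcm7, which has 15 exons and encodes a subunit of the helicase that opens DNA for replication. Of the 3 Mcm7 transcripts that overlap Mir93 and Mir25, 1 places them inside an exon.

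Replicate 1 held 5278986 reads, of which 2023410 (38.3%) were counted on the strand of a microRNA gene, and replicate 2 held 8555429 reads, of which 3208821 (37.5%) were counted. Levels are CPM, the counts of a gene scaled to a fixed total of these assigned counts, and 1 count was worth 0.494 and 0.312 CPM. CPM is not divided by gene length, because each read covers 1 short mature product whatever the length of its hairpin. Of the marker lists, neuroendocrine microRNAs were at 10 CPM or more in both libraries for 5 of 5 genes. They summed to 28211 and 34978 CPM, with Mir375 at 24805 and 31924 CPM. Of these genes 1, Mir375, was higher in replicate 2, 3 were lower and 1 was not called. In this list and the others, counts of genes higher or lower in replicate 2 are read against shares of all genes tested. Those shares were 37.7% and 36.5% by the exact test described with the members' differences. Mir126a of endothelium had 177728 and 47927 CPM, and Mir122 of liver had 26733 and 9284 CPM. The summed levels were 1488 and 2451 CPM for leukocytes (4 of 4 genes higher in replicate 2) and 653 and 320 CPM for red blood cells (3 of 3 lower). Striated muscle summed to 11198 and 4488 CPM, nearly all from Mir206 at 11177 and 4480 CPM. Of its 6 genes, 1 was at 10 CPM or more in both libraries and 2 were at 0 in both. Smooth muscle summed to 28429 and 39314 CPM (2 of 2 higher), and Mir202 of the gonads had 81.5 and 32.7 CPM. The 9 pluripotent-cell genes summed to 103 and 138 CPM, and of 4 tested 1, Mir291a, was called. Mir291a, at 3.46 and 14.6 CPM, reached the 10 CPM needed for testing in replicate 2 only, which fixed its direction as higher. These levels stand beside every difference between the libraries given here, and their part in it was not tested. In whole glands, fewer cells of a type and less of a microRNA per cell cannot be told apart.

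Together the 9 members took 1.52% of the counts in replicate 1 and 1.83% in replicate 2, a mean of 1.67% ± 0.221 (SD, n = 2). The miR-17/92 members took 0.970% and 1.05%, with exact 95% intervals of 0.957 to 0.984% and 1.04 to 1.06%, and averaged 1.01% ± 0.0586 (SD, n = 2). The miR-106b/25 members took 0.548% and 0.778% and averaged 0.663% ± 0.162 (SD, n = 2). The 6-gene cluster was thus above the 3-gene cluster in both libraries, and the clusters' values did not overlap. Both were far above Mir106a-Mir363, which took 0.0231% and 0.0260%. The intervals cover counting error only, since no molecular identifiers are named in the sources used here.

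For each count from miR-106b/25, miR-17/92 gave 1.77 counts in replicate 1 and 1.35 in replicate 2. The exact 95% intervals were 1.73 to 1.81 and 1.33 to 1.38, and the ratio averaged 1.56 ± 0.293 (SD, n = 2). The ratio differed between the libraries by more than counting error (two-sided Fisher's exact test, p = 2.47e-76). Left without Mir92-1 and Mir19b-1, whose counts are lower limits, the ratio was 1.30 and 1.11. Relative to replicate 1, the summed miR-17/92 level in replicate 2 had a log2 ratio of 0.17 (exact 95% interval 0.14 to 0.19), and that of miR-106b/25 had 0.55 (0.52 to 0.58).

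The members spanned more than 3 orders of magnitude, a range set by Mir19a of miR-17/92 at 3 and 10 counts. The 7 members other than Mir19a and Mir19b-1 ran from 347 to 5703 CPM by mean, although each cluster is made as 1 precursor. Mir93 was highest by mean at 5703 ± 1845 CPM (SD, n = 2), followed by Mir17 at 5204 ± 949 CPM. They stood at rank 38 and rank 40 by mean among the 2202 genes. Their ranges overlapped and their order was opposite in the libraries: Mir17 had 1.03 counts for each Mir93 count in replicate 1 and 0.838 in replicate 2. Mir92-1 at 2215 ± 481 CPM and Mir20a at 2023 ± 286 CPM came next, with overlapping ranges and an order that again switched. Below them were Mir18 at 662 ± 167 CPM and Mir106b at 581 ± 58.4 CPM, whose ranges overlapped with Mir18 above Mir106b in both libraries. Mir25 followed at 347 ± 165 CPM, Mir19b-1 at 9.18 ± 2.40 CPM and Mir19a at 2.30 ± 1.16 CPM. Every other neighbouring pair in this order, from Mir17 against Mir92-1 to Mir19b-1 against Mir19a, was separated in both libraries with no overlap.

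**Figure D1:**
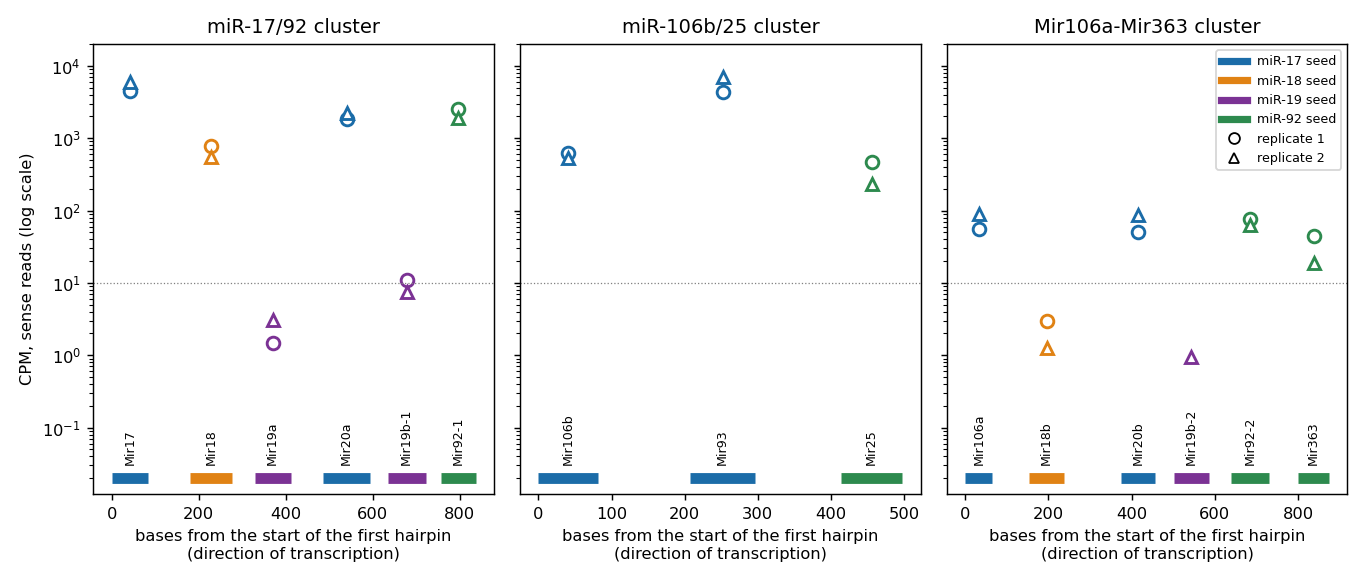
CPM of each hairpin gene on a log axis against its distance in bases from the start of the first hairpin of its cluster, with circles for replicate 1, triangles for replicate 2, colours for the seed family and bars for the hairpins; the dotted line is the testing floor of 10 CPM. Mir19a and Mir19b-1 lie at 1.48 to 10.9 CPM between neighbours at 544 CPM or more, and Mir19b-2, at 0 in replicate 1, has a point for replicate 2 only.

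Position within a cluster did not order the levels. The first hairpin, Mir17, made up 46.7% of miR-17/92 counts in replicate 1 and 55.8% in replicate 2. Mir18, which starts 180 bases further on, made up 8.03% and 5.16%, Mir20a at 486 bases 18.8% and 21.1%, and Mir92-1 at 756 bases 26.3% and 17.8%. Along the precursor the shares thus neither fell nor rose steadily. In miR-106b/25 the middle hairpin, Mir93, held 80.2% and 90.1% of the counts, against 11.4% and 6.94% for Mir106b and 8.44% and 2.96% for Mir25.

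**Figure D2:**
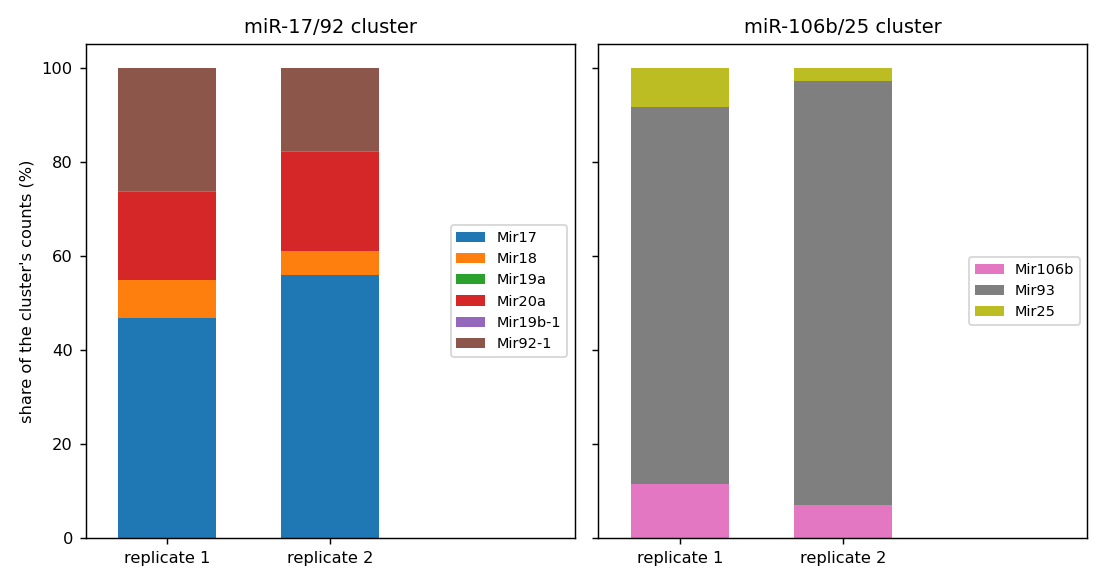
Each member's percent of the counts of its own cluster, stacked by cluster and library. Mir17 is the largest part of miR-17/92 at 46.7% and 55.8%, and Mir93 the largest part of miR-106b/25 at 80.2% and 90.1%.

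The miR-19 members were the exception in level. MiR-19a and miR-19b are known as the main drivers of lymphoma growth within miR-17/92. Mir19a had 3 counts in replicate 1 and 10 in replicate 2, or 1.48 and 3.12 CPM, and Mir19b-1 had 22 and 24 counts, or 10.9 and 7.48 CPM. Mir17 from the same precursor had 3057 and 1885 counts for each Mir19a count, with exact 95% intervals of 1046 to 14828 and 1025 to 3932. Together Mir19a and Mir19b-1 gave 0.0814% and 0.0579% of the counts of the 9 members. For Mir19b-1 the shared arm shown above bears on the level, but the guide arm of Mir19a was in no other annotated hairpin, its longest shared run was 13 bases, and no genome was searched, so the cause of its level was not tested. Mir19b-2, the X-linked copy, had 0 and 3 counts, and a count of 0 allows up to 1.48 CPM in replicate 1.

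The miR-17 family had the highest counted level. Its 4 genes summed to 11375 and 15648 CPM, which was 74.9% and 85.5% of the counts of the 9 members, a mean of 80.2% ± 7.47 (SD, n = 2). The miR-92 family summed to 3018 and 2105 CPM, or 19.9% and 11.5%. Mir18 alone gave 5.13% and 2.97%. Among the reads counted, the miR-17 family was therefore the largest and the miR-19 family the smallest in both libraries. The shares of the miR-92 and miR-19 families are lower limits, since reads from the copied arms of Mir92-1 and Mir19b-1 are missing.

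The 9 members also held most of the hairpin counts of the genes that carry their seeds. For the miR-17 seed, 7 annotated genes exist and the members held 99.1% and 98.9% of the counts. For the miR-18 seed the members held 99.6% and 99.8% over 2 genes, and for the miR-92 seed 92.4% and 90.5% over 7 genes. For the miR-19 seed they held 100% and 91.9% over 3 genes, which was 25 of 25 and 34 of 37 counts. Reads from the arms shared with Mir92-2 and Mir19b-2 are missing, so the miR-19 and miR-92 shares cover only the reads counted. Outside the 3 clusters, Mir32 and Mir92b carried the miR-92 seed at 10 CPM or more in both libraries. Mir32 had 60.8 and 84.8 CPM and Mir92b 67.7 and 54.5 CPM, so each was below the lowest Mir25 value of 230 CPM.

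Differences between the libraries were tested for 329 genes that reached 10 CPM in 1 or both. The test was a two-sided exact binomial test per gene, with library sizes scaled by TMM and p-values adjusted by Benjamini-Hochberg. This test measures a difference against counting error only, and it called 74.2% of all genes at an adjusted p below 0.05, 37.7% higher and 36.5% lower in replicate 2. Of the 9 members 8 were tested and 7 were called, 3 higher and 4 lower in replicate 2, which is near that background. Mir19b-1 passed the floor through replicate 1 only, which fixed its direction, and Mir19a was below the floor in both. The median log2 ratio of replicate 2 over replicate 1 was -0.28 over the 8 members, Mir19b-1 included, and -0.0052 over all genes tested. Without Mir19b-1 the middle value among the members was that of Mir106b, at -0.16. The summed level of the 9 members went the other way, with a log2 ratio of 0.32. The median size of the log2 ratio was 0.43 for the members and 0.49 for all genes. With TMM all 8 lay within 1 log2 unit, as did 77.8% of all genes tested, but Mir25 was at -1.01 without TMM and at -1.04 with all reads as the library size.

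Every one of these calls was lost once the spread between the libraries was used as the error. With edgeR's exact test and the common dispersion of all genes, a biological coefficient of variation of 45.4%, 0 of the 329 genes were called, and 6.99% had an unadjusted p below 0.05. Unadjusted p over the 7 called members ran from 0.318 for Mir25 to 0.869 for Mir106b, and their adjusted p was 1 (edgeR exact test). That dispersion was estimated from the same libraries, so the differences below describe these 2 libraries and are within the spread that genes in general showed between them.

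**Figure D3:**
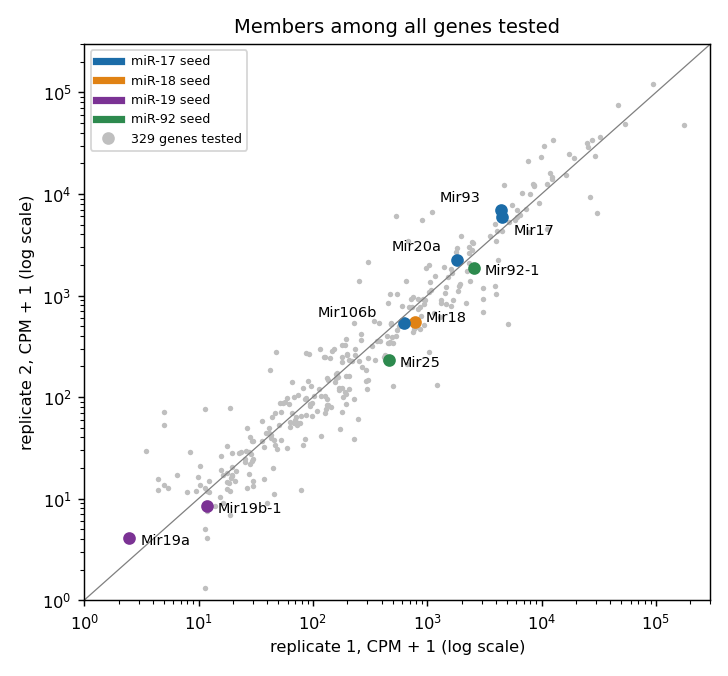
Level in replicate 2 against replicate 1 on log axes of CPM + 1, with the 329 genes tested in grey, the 9 members in the colour of their seed family and a line of equal level. The members lie close to the line within the cloud of all genes, from Mir19a at the bottom to Mir93 and Mir17 near the top.

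The genes of the miR-17 family were mostly higher in replicate 2. Mir17 had 4533 CPM in replicate 1 against 5876 CPM in replicate 2, a log2 ratio of 0.42 (exact 95% interval 0.39 to 0.46). Mir20a had 1821 and 2224 CPM, a log2 ratio of 0.34 (0.28 to 0.39). These genes of 1 precursor had 2.49 and 2.64 Mir17 counts for each Mir20a count. That was a small difference, but beyond counting error (two-sided Fisher's exact test, p = 0.0137). Mir93 had 4399 and 7008 CPM, a log2 ratio of 0.72 (0.68 to 0.76), and 64.4% of the genes tested had a smaller difference. Mir106b, beside it in the Mcm7 intron, had 623 and 540 CPM, a log2 ratio of -0.16 (-0.26 to -0.05; adjusted p = 0.00509, exact binomial test). Mir106b was thus the 1 miR-17 family member that was lower in replicate 2, and there were 7.06 Mir93 counts for each Mir106b count in replicate 1 and 13.0 in replicate 2.

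The members of the other seed families were at lower levels in replicate 2 wherever they were called. Mir18, whose family seed differs from that of miR-17 within an otherwise similar arm, had 779 and 544 CPM, a log2 ratio of -0.47 (-0.57 to -0.37). Mir92-1 had 2555 and 1875 CPM, a log2 ratio of -0.40 (-0.45 to -0.34). Mir25 had 463 and 230 CPM, a log2 ratio of -0.96 (-1.10 to -0.82), and 74.8% of the genes tested had a smaller difference, so it was the member that differed most. Mir19b-1 had a log2 ratio of -0.44 with an interval of -1.39 to 0.41 and was not called (adjusted p = 0.344, exact binomial test).

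**Figure D4:**
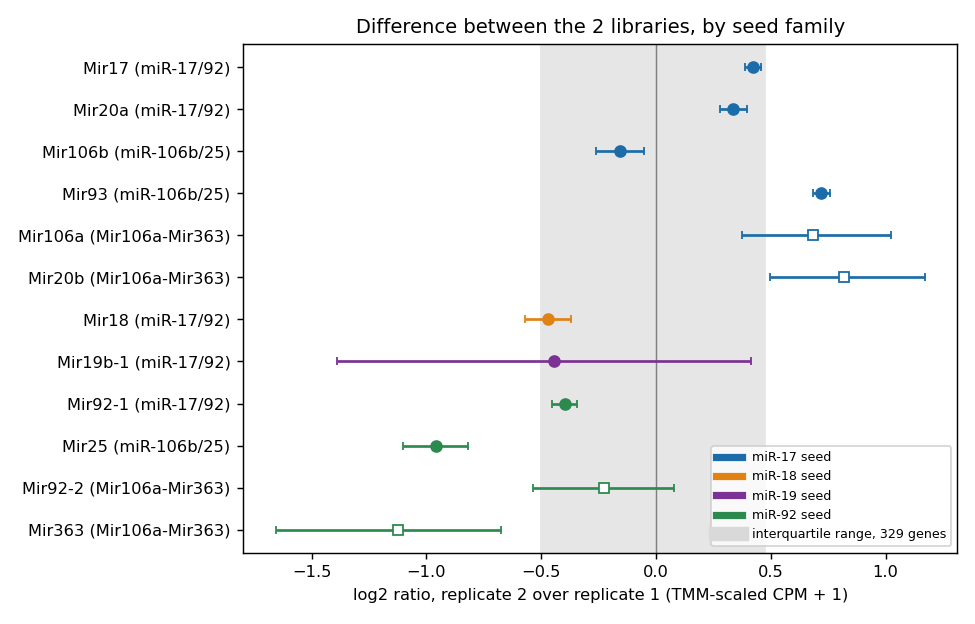
Log2 ratio of replicate 2 over replicate 1 for each tested gene of the 3 clusters with its exact 95% interval, coloured by seed family, with filled circles for members and open squares for Mir106a-Mir363; the grey band is the interquartile range of the 329 genes tested, -0.50 to 0.47. Of the 6 miR-17 family genes 5 lie above 0, Mir106b being the exception, and the 4 miR-92 family genes lie below 0.

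The balance of miR-17 to miR-92 family counts differed in the same direction in all 3 clusters. In miR-17/92 there were 2.49 miR-17 family counts for each miR-92 family count in replicate 1 and 4.32 in replicate 2, with exact 95% intervals of 2.41 to 2.57 and 4.20 to 4.44. In miR-106b/25 there were 10.8 (10.1 to 11.6) and 32.8 (30.5 to 35.4). In Mir106a-Mir363 there were 0.882 (0.731 to 1.06) and 2.12 (1.83 to 2.46). No interval of replicate 1 overlapped that of replicate 2 in the same cluster, so the counted balance differed between the libraries beyond counting error. In miR-17/92 and Mir106a-Mir363 the miR-92 family counts are lower limits, and reads with several alignments numbered 65.2 for every 100 assigned reads in replicate 1 and 72.6 in replicate 2, whose part in the ratios was not tested. In miR-106b/25, no guide arm was found in another annotated hairpin, but no genome was searched, so the part of such reads was not tested there either. With 1 value per library, this pattern has no test over animals, and outside the clusters Mir32, of the miR-92 seed, went the opposite way at a log2 ratio of 0.52 (0.22 to 0.85; adjusted p = 0.00107, exact binomial test). Mir92b had a log2 ratio of -0.26 (-0.59 to 0.07) and was not called (adjusted p = 0.15, exact binomial test).

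**Figure D5:**
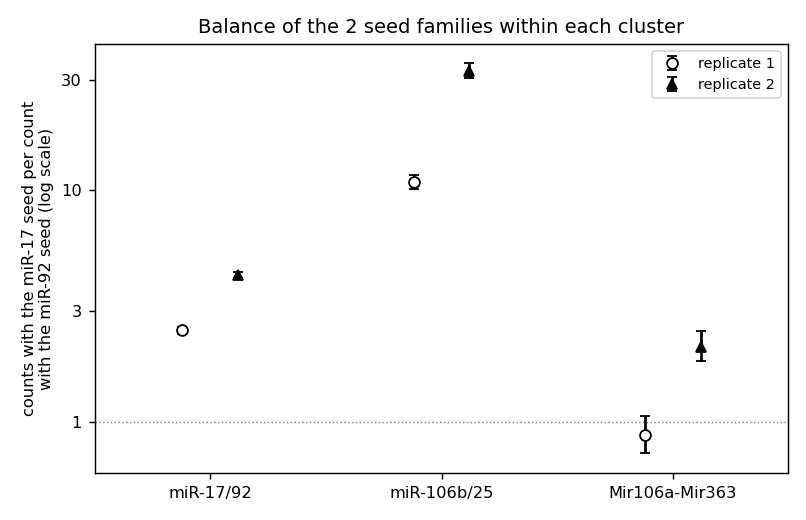
Number of miR-17 family counts for each miR-92 family count within each cluster, by library, on a log axis with exact 95% intervals. Replicate 2 lies above replicate 1 in each of the 3 clusters, from 0.882 against 2.12 in Mir106a-Mir363 to 10.8 against 32.8 in miR-106b/25.

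The X-linked relatives were rarer than their counterparts. Mir106a, whose guide arm differs from that of Mir17 by U10A alone, had 56.3 and 88.2 CPM, a log2 ratio of 0.68 (0.38 to 1.02; adjusted p = 1.7e-05, exact binomial test). There were 80.5 and 66.6 Mir17 counts for each Mir106a count, which was not a difference beyond counting error (two-sided Fisher's exact test, p = 0.0949). Mir20b had 50.4 and 86.6 CPM, a log2 ratio of 0.82 (0.50 to 1.17; adjusted p = 6.1e-07, exact binomial test). These miR-17 family genes were both higher in replicate 2, as were Mir17 and Mir20a. Mir92-2 had 77.1 and 63.6 CPM, a log2 ratio of -0.23 (-0.54 to 0.08; adjusted p = 0.182, exact binomial test), and Mir363 had 44.0 and 19.0 CPM, a log2 ratio of -1.12 (-1.66 to -0.68; adjusted p = 1.88e-06, exact binomial test). Mir92-1 stood at 33.1 and 29.5 counts for each Mir92-2 count (two-sided Fisher's exact test, p = 0.283), and both genes lose reads from the shared arm. Mir18b had 6 and 4 counts and was not tested.

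Genes outside the clusters that are tied to the same transcription factors were taken as lists. Of the 5 E2F-linked microRNA genes outside the 3 clusters 3 were tested, and 0 were higher, 2 lower and 1 not called, with a median log2 ratio of -0.72. With 74.2% of all genes called and 36.5% called lower, a count over 3 genes shows nothing particular to the list. Mir15b, which lies in the condensin gene Smc4, had 3895 and 1246 CPM, a log2 ratio of -1.60, and its neighbour Mir16-2 had 416 and 245 CPM, a log2 ratio of -0.72. Mir449a, a microRNA of multiciliated cells, had 62.3 and 49.2 CPM and was not called (adjusted p = 0.131, exact binomial test). Both called E2F-linked genes were lower in replicate 2, while of the 7 called members 4 were lower and 3 were higher. Of the 24 genes known to be repressed by Myc 22 were tested and all 22 were called, against 74.2% of all genes. The share called depends on level, with 195 of 217 genes called at a floor of 100 CPM. The list was not compared with genes of like level. In replicate 2, 12 genes of the list were higher and 10 lower, against 37.7% and 36.5% of all genes. Their log2 ratios ran from -3.24 to 3.89, with a median of 0.22. The highest was that of Mir26a-1, at 3.95 and 70.1 CPM, which passed the floor through replicate 2 only, and this fixed its direction. The 24 genes took 13.8% and 11.2% of the counts. They were led by Mirlet7g at 54169 and 48930 CPM, Mir22 at 30246 and 6556 CPM and Mir30d at 12270 and 13892 CPM. Summed over its 24 genes, the Myc-repressed list therefore stood several times above the sum of the 9 members in both libraries. These sums are not scaled to the number of genes.

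The genes nearest to Mir17 in level over both libraries, by Euclidean distance of log2(CPM + 1), were Mir431 at 0.263, Mir674 at 0.308 and Mir130a at 0.383. Mir431 had 5223 and 5239 CPM, Mir674 had 3916 and 5029 CPM, and Mir130a had 5874 and 5544 CPM. The genes nearest to Mir93 were Mir151 at 0.357 with 5522 and 7719 CPM, Mir191 at 0.474 with 6109 and 6955 CPM, and Mir431 at 0.487. With 2 libraries, this distance compares levels and not a pattern over conditions.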

How the data were processed

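The authors deposited raw read counts per microRNA hairpin gene for each library, on mm10 with GENCODE M21, per the text files deposited with them. The programs for alignment and counting were not given in the sources used here. Counts on the strand of the gene were used, and all 9 members had equal counts irrespective of strand. Reads with several alignments, 25.0% and 27.2% of all reads, were not counted in the deposited tables. All 2202 identifiers matched M21. With 1 group edgeR's quasi-likelihood test has no contrast, so the libraries were compared by an exact conditional binomial test. It used TMM sizes (edgeR 4.0.16) and Benjamini-Hochberg adjustment at 0.05 over genes with at least 10 CPM in either library. The test was tried on simulated counts with counting error only, which hold no spread between animals. Log2 ratios used a pseudocount of 1 CPM, which understates differences of low genes, and their 95% intervals used none. Shares have Clopper-Pearson intervals. A count of 0 allows 3 counts, 1.48 and 0.935 CPM.

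Named genes were the members, the Mir106a-Mir363 genes, other genes with a member's seed at 10 CPM in both libraries, the 3 genes nearest to Mir17 and to Mir93, and up to 3 genes per list by mean CPM. Of the marker lists, mostly sums are given. The members and lists were chosen with earlier results of these data known. Sequences are from RefSeq on GRCm38.p6, whose hairpin coordinates equal those of M21. Software was R 4.3.3, DESeq2 1.42.0, Python 3.11.15, SciPy 1.17.1, pandas 2.3.3 and matplotlib 3.10.9.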

Additional observations from a re-analysis of the deposited data

How the results depend on the processing

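Against 244 genes called, 242 were called without TMM, 237 with DESeq2 size factors, 243 with all reads as the library size (chosen after seeing the data), 247 with no floor, 195 at a floor of 100 CPM, 227 irrespective of strand and 0 with edgeR's exact test. Of the members 7 were called under each, except 0 with edgeR's exact test. No member's log2 ratio changed sign under the alternatives run. With all reads as the denominator the mean miR-17/92 share was 0.383% and that of miR-106b/25 was 0.251%, and irrespective of strand, where fewer reads were assigned, they were 1.36% and 0.887%. Without Mir92-1 and Mir19b-1 the mean ratio of the clusters was 1.21, and the mean shares of the miR-17, miR-19 and miR-92 families were 92.7%, 0.0154% and 2.54%. Left with 1 library, the miR-17/92 share ran from 0.970% to 1.05%, the miR-106b/25 share from 0.548% to 0.778%, their ratio from 1.35 to 1.77, and the family shares from 74.9% to 85.5% for miR-17, 2.97% to 5.13% for miR-18, 0.0579% to 0.0814% for miR-19 and 11.5% to 19.9% for miR-92. No paired analysis was possible because the series has 1 group. Depth limits Mir19a, at 3 and 10 counts, and Mir19b-1, at 22 and 24 counts, for which no difference was detectable.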
